A study of Mus musculus with 99 samples.

Results

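Transcripts of respiratory complexes II to V and cytochrome c were followed in hind limb muscle and spinal cord of the mouse. The members were the rows of the count table whose symbols name subunits of succinate dehydrogenase (Sdha to Sdhd), the cytochrome bc1 complex (Uqcr genes, Cyc1), cytochrome c oxidase (Cox4 to Cox8 genes with their tissue isoforms) and ATP synthase (Atp5 genes), Cycs for cytochrome c, and the 6 mitochondrially encoded mRNAs of these complexes. This rule took 54 of 35870 genes, of which 48 are encoded in the nucleus and 6 in mitochondrial DNA. Complex II had 4 members, complex III 9 nuclear members and CYTB, complex IV 18 nuclear members and COX1, COX2 and COX3, and complex V 16 nuclear members and ATP6 and ATP8. The rule used symbols alone and no measured value.

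The RNA was polyadenylated RNA of 2 hind limb muscles (gastrocnemius and quadriceps) and of the whole spinal cord, taken from PBS-perfused male C57BL/6 mice of wild-type genotype. In each tissue a sedentary group of 10 months, a sedentary group of 18 months and an exercised group of 18 months were compared, and the labels do not describe the exercise. In that order there were 10, 10 and 13 libraries of gastrocnemius, 10, 9 and 12 of quadriceps, and 10, 10 and 13 of cord, 97 in all. No label says that each library came from a separate animal, so p-values measure the spread between these libraries, which may be technical.

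The complexes pass electrons from succinate and ubiquinol to oxygen and use the resulting proton gradient to make ATP. Complexes III, IV and V are mosaics of subunits from both genomes, whereas complex II is encoded in the nucleus alone. Several complex IV subunits exist as pairs of isoforms, of which one is typical of heart and skeletal muscle and the other is found in most tissues.

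Total counts ran from 29063006 to 62769274 per library, and mitochondrial genes took 1.585% to 19.71% of them. Gastrocnemius libraries 3.1 and 2.2, quadriceps library 3.1 (all 10 months) and cord libraries 5.2 and 6.1 (18 months, sedentary) stood apart from their tissue, and results that rest on them are given without them as well. Neuronal markers summed to 4759 to 5793 CPM (counts scaled to library size within each tissue) in cord and to at most 6.535 CPM in muscle, where the motor neuron gene Chat had a median of 0 CPM in 5 of the 6 groups. Fast fibre markers summed to 70470 to 140600 CPM in muscle and to 63.54 to 608.6 CPM in cord. Library numbers with 1 to 3 before the point occur only at 10 months, so age and whatever that number stands for cannot be told apart.

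Part of the mitochondrial signal cannot be assigned to one genome. A stretch of chromosome 1 (GRCm38) carries copies of mitochondrial genes, and 3 of the 6 members match it over nearly their whole length. The copy Gm28661 (chromosome 1, 24614885 to 24615565, minus strand) and COX2 (mitochondrial DNA, 7013 to 7696) aligned over 681 bases with 0 differences. Gm10925 aligned with ATP6 over 678 bases and Gm28437 with COX3 over 783 bases, also with 0 differences. The opening of COX2 is shown with the same stretch of its copy, because reads from these letters fit both loci.

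COX2, chrM:7013-7072, plus strand: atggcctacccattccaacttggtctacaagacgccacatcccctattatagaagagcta
Gm28661, chr1:24615506-24615565, minus strand: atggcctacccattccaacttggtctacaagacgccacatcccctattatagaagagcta

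COX1 matched a copy over 492 bases, 31.8% of its length, with 6 differences, and CYTB had no copy in that stretch. ATP8 shares 43 bases with the overlapping ATP6. In gastrocnemius of 10-month mice the medians on the TPM scale (transcript abundance scaled for gene length and library size) were 56310 for COX1 and 37390 for CYTB. COX2, COX3 and ATP6, which come from the same mitochondrial transcripts, had medians of 127, 119.3 and 97.97 TPM, and ATP8 had 16.06 TPM. The values of COX2, COX3, ATP6 and ATP8 are therefore uncertain, and COX1 and CYTB are the better measured of the mitochondrial members. How far the copies account for the low values was not tested.

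Among nuclear members, the highest gastrocnemius medians at 10 months belonged to Atp5b, the catalytic beta subunit of ATP synthase, at 3288 TPM, and to Cox6a2, a muscle isoform of complex IV, at 2183 TPM. Atp5a1, the alpha subunit of ATP synthase, had 2097 TPM, and Cox4i1, the common form of subunit 4, had 1376 TPM. Cycs, the mobile electron carrier, was lower at 157.1 TPM, and Atp5s, a coupling factor of ATP synthase, was at 14.24 TPM. Of the 48 nuclear members, 46 passed the filter on low counts in both muscles and 47 in cord. Cox8c was at 0 counts in all 64 muscle libraries, where 3 counts would be 0.0478 to 0.103 CPM, and reached at most 1 count in cord. Cox7b2 had 0 to 2 counts in muscle libraries, 50 of 64 being at 0, and 4 to 30 counts in cord.

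The isoforms of complex IV separated muscle from cord more sharply than any other members. COX6A2, COX7A1 and COX8B are the muscle forms of 3 small subunits, and COX6A1, COX7A2 and COX8A are their common forms. The bases before the annotated start of 5 of these genes are shown because the shares of the muscle and common forms differed most between muscle and cord. They are from RefSeq (GRCm38.p6), on the strand of the gene, and capitals mark matches to the motif bound by NRF1, a regulator of respiratory genes.

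Cox6a1, common form, chr5:115348982-115349208, minus strand: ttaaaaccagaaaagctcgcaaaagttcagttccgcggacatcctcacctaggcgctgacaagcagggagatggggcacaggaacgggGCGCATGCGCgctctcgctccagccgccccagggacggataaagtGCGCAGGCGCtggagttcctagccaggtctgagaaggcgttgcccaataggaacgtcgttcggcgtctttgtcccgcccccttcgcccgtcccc
Cox7a1, muscle form, chr7:30183921-30184143, plus strand: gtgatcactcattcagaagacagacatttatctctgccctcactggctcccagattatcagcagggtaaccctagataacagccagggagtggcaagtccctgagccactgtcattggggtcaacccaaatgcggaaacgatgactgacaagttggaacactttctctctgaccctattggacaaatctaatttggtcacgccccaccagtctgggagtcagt
Cox7a2, common form, chr9:79759879-79760103, minus strand: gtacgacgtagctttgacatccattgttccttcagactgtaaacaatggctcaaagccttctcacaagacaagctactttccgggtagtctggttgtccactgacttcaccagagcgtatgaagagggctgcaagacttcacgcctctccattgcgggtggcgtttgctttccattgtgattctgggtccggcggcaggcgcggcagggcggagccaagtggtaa
Cox8b, muscle form, chr7:140900447-140900696, minus strand: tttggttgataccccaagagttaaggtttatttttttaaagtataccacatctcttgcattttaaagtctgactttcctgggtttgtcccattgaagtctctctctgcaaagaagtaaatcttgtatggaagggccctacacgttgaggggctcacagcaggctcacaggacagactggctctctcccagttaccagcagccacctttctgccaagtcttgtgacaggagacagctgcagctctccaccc
Cox8a, common form, chr19:7217617-7217866, minus strand: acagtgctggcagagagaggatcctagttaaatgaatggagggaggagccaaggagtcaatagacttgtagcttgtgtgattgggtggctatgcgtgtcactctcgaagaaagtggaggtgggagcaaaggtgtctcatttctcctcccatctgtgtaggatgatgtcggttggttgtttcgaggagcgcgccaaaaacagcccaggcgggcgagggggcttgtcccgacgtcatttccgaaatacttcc

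Cox6a1 had 2 matches to the NRF1 motif (GCGC and TGCGC with 1 base of any kind between them) in these bases, and 62.1% of the bases were G or C. The other 4 printed stretches held none of 4 motifs searched on both strands, and their G or C content ran from 47.2% for Cox8b to 53.8% for Cox7a2. RefSeq windows of 300 bases (250 before to 50 after the start) were found for 37 of the 48 nuclear members and for 27025 genes in all. The NRF1 motif was in the windows of 10 members (27.027%) and in 5.188% of all windows: Atp5c1, Atp5g2, Atp5g3, Atp5h, Atp5k, Atp5o, Cox6a1, Sdha, Sdhd and Uqcrc1. The GABP motif CCGGAAGT was in 4 member windows (10.811%, against 4.307% of all), those of Atp5h, Cox8a, Uqcr11 and Uqcrh. The YY1 motif AANATGGC was in 5 (13.514%, against 6.96%) and the MEF2 motif (CTA and TAG with 4 bases between them) only in that of Cox5b (2.703%, against 4.233%). The Cox8a match does not lie wholly within the printed bases. A match is a stretch of letters and was not tied to binding.

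Cox6a2 TPM at 10 months ran from 1926 over a median of 2184 to 3113 in gastrocnemius, from 2439 over 2562 to 2844 in quadriceps, and from 2.418 over 5.314 to 15.11 in cord. Its common partner Cox6a1 ran from 53.07 over 67.15 to 88.38, from 56.43 over 69.0 to 81.28, and from 1012 over 1118 to 1293 TPM. All muscle libraries thus lay on 1 side and all cord libraries on the other for both genes, with muscle 446-fold higher for Cox6a2 and cord 16.4-fold higher for Cox6a1.

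Cox8b had medians of 1533, 1664 and 7.348 TPM in gastrocnemius, quadriceps and cord, and Cox8a had 96.47, 98.59 and 1208 TPM. Muscle was 218-fold higher for Cox8b and cord 12.4-fold higher for Cox8a, again with no overlap of libraries. The subunit 7a pair was less divided. Cox7a1 was 50.2-fold higher in muscle (1096 and 1458 against 25.43 TPM), but Cox7a2 overlapped between tissues, at 337.8, 365.9 and 442.5 TPM.

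**Figure D1:**
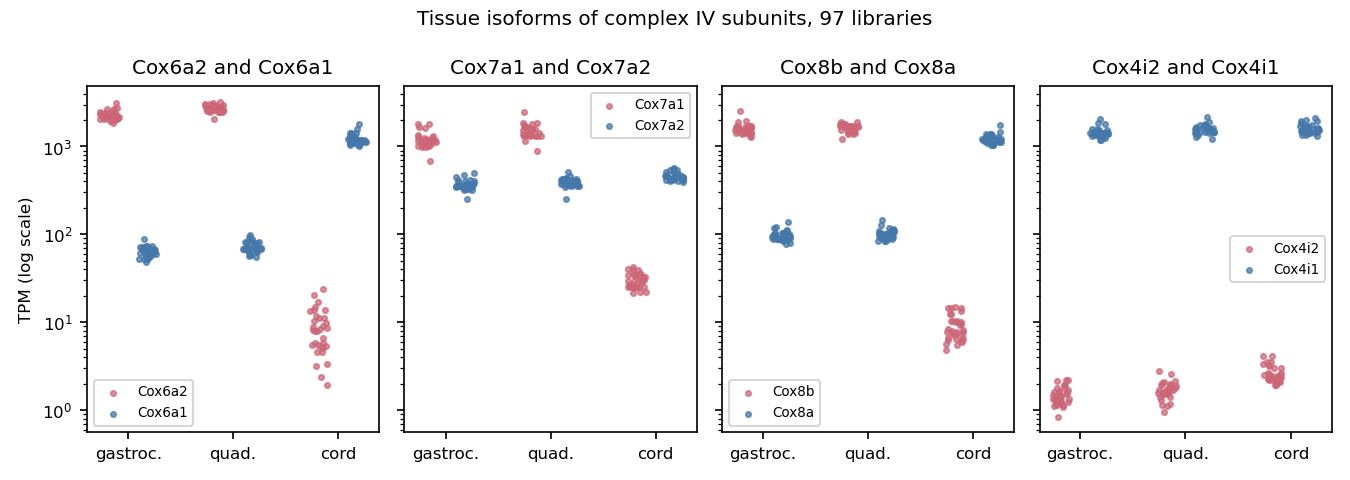
TPM on a log scale of 4 pairs of complex IV isoforms in each of the 97 libraries, by tissue, with the form named first in each title (the muscle form, or Cox4i2) in red and the common form in blue. Cox6a2 and Cox8b lie above their partners in every muscle library and below them in every cord library, and Cox7a2 lies at similar levels in all tissues.

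As a share of the pair, Cox6a2 made up a median of 97.13% in gastrocnemius and 97.35% in quadriceps at 10 months, but 0.4688% in cord. Cox8b made up 94.4%, 94.26% and 0.6344% of the Cox8a and Cox8b sum. Cox7a1 made up 76.58%, 79.30% and 5.679% of the Cox7a1 and Cox7a2 sum. The trace of muscle forms in cord stood beside fast fibre markers, whose sum had a median of 124.9 CPM in 10-month cord and reached 580.3 CPM in 1 library. The part of muscle RNA in the cord values of Cox6a2, Cox7a1 and Cox8b was not tested.

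The other complex IV variants were rare in every tissue or differed less. Cox4i2, the oxygen-responsive form of subunit 4, was at 1.303, 1.661 and 2.215 TPM, beside 1376, 1563 and 1534 TPM for Cox4i1. Cox6b2, known from testis, was at 0.943, 0.6585 and 13.11 TPM, 16.4-fold higher in cord, beside 1082, 1228 and 1008 TPM for Cox6b1. Cox7b2, also known from testis, had a cord median of 1.554 TPM and was at 0 in muscle medians, while Cox7b had 524.6, 538.6 and 375 TPM. Cox7a2l, which helps join complexes III and IV into supercomplexes, was 1.83-fold higher in cord, at 293.1 against 161.6 and 158.7 TPM. The 1 transcript of it that was searched shares 17.8% of its bases with another locus.

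No isoform share was shown to change with age or exercise. Of 24 comparisons of 4 shares (Cox4i2 was the fourth) none passed Benjamini-Hochberg adjustment. The smallest p was for Cox6a2 in sedentary gastrocnemius, 97.1% ± 0.280 at 10 and 97.49% ± 0.205 at 18 months (SD, n = 10 each), a difference of 0.394 percentage points (two-sided permutation p = 0.00252, adjusted p = 0.0605). Without libraries 3.1 and 2.2 the difference was 0.46 points and passed (permutation, adjusted p = 0.0296). Cox4i2 in cord went from 0.1476% ± 0.0214 to 0.1776% ± 0.0217 of its pair (SD, n = 10 each; permutation p = 0.00711, adjusted p = 0.0739). Cox7a1 in gastrocnemius was 75.19% in sedentary and 77.15% in exercised 18-month libraries, a difference of 1.958 points (permutation p = 0.0106, adjusted p = 0.0739).

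The remaining members set muscle and cord apart by much less. For the 38 nuclear members outside the isoform sets, the ratio of the muscle to the cord median was between 0.546 and 3.01, with a median of 1.65. Over all nuclear members, cord libraries lay below every muscle library for 28, above every one for 6 (Cox6a1, Cox6b2, Cox7a2l, Cox7b2, Cox8a and Atp5s), and overlapped for 14. Of the mitochondrial members CYTB, COX3 and ATP6 lay below every muscle library, and COX1, COX2 and ATP8 overlapped. The share of all genes separated in this way was not counted. The fit of counts given below called 92.1% of 19735 genes between these tissues.

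In complex II, Sdhb, the iron-sulphur subunit, had medians of 741, 864.5 and 341.4 TPM in gastrocnemius, quadriceps and cord. The membrane anchors Sdhc and Sdhd had 463, 478.9 and 252.4 TPM and 396.9, 408.8 and 210.6 TPM. Sdha, the flavoprotein that binds succinate, was nearer between tissues at 699.4, 721.1 and 587 TPM, and its libraries overlapped whereas those of the other 3 did not.

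In complex III, Uqcrfs1, the Rieske iron-sulphur protein, was 2.46-fold higher in muscle (600.5 and 648.5 against 253.6 TPM). Cyc1, cytochrome c1, was at 723.5, 761.1 and 425.5 TPM with overlapping libraries. CYTB, the mitochondrial subunit that binds ubiquinol, was at 37390, 41590 and 21280 TPM. Cycs, which carries electrons from complex III to IV, was 2.2-fold higher in muscle, at 157.1, 165.5 and 73.22 TPM, and shares sequence with 7 other genes.

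In complex V, Atp5e, a small subunit of the central stalk, had the largest ratio outside the isoforms, 1302 and 1499 against 465.4 TPM. Atp5a1 and Atp5b, which form the catalytic head, had 2097, 2162 and 1267 TPM and 3288, 3376 and 2314 TPM. A trio of genes encodes the same proton-turning c subunit. Atp5g3 was the highest of them in all 3 tissues (1461, 1566 and 1100 TPM), followed by Atp5g1 (893.2, 1008 and 392.8 TPM) and Atp5g2 (233.4, 218.4 and 119.7 TPM). The 1 transcript searched for Atp5g2 shares 88.2% of its bases with another locus and that for Atp5g1 11.1%, so their levels are uncertain.

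**Figure D2:**
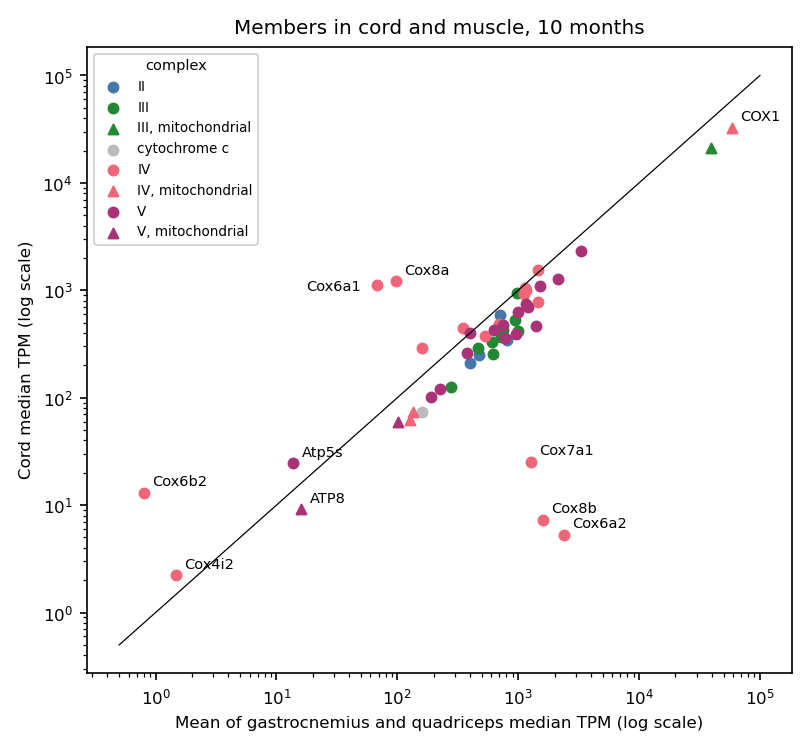
Median TPM in 10-month cord against the mean of the gastrocnemius and quadriceps medians, both on log scales, 1 point per member and colours by complex; Cox7b2 and Cox8c, at 0 in muscle medians, are not drawn. Most points lie just below the line of equality, while the muscle forms Cox6a2, Cox8b and Cox7a1 lie far below it and Cox6a1, Cox8a and Cox6b2 above it.

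A fit of counts over all tissues (edgeR quasi-likelihood test, Benjamini-Hochberg adjustment) called 53 of 53 tested members between 10-month cord and the mean of both muscles, where 92.1% of the 19735 genes tested were called, 53.9% higher and 38.2% lower. Cox7b2 was at 0 counts in 50 of 64 muscle libraries. It passed the low-count filter only through cord, so it could only be called higher there. With it, the fit placed 4 members higher in cord, Cox7b2, Cox6a1 (log2 2.54 ± 0.0772 SE), Cox6b2 (2.43 ± 0.136) and Cox8a (2.05 ± 0.0697), and 49 lower. The largest differences among these were those of Cox6a2 (-9.88 ± 0.263), Cox8b (-9.13 ± 0.166), Cox7a1 (-7.08 ± 0.156), Atp5e (-3.16 ± 0.112) and Uqcrb (-2.83 ± 0.0886), the last 2 being a subunit of complex V and one of complex III. The transcript searched for Uqcrb shares 62.8% of its bases with another locus, so its level is uncertain. The median member was at -2.24 and the median of all genes at 0.40.

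The size of these differences depends on the scaling. With library totals and no scaling factor, which was tried after these results were known, the median of all genes moved to 1.54, that of the members to -1.10, and 6 members were higher and 45 lower of 51 called. In the fit with scaling factors Cox4i1, for example, was called lower in cord by 1.47 on the log2 scale, while its TPM overlapped between tissues. With library totals Cox6a1, Cox6b2 and Cox8a stayed higher in cord, at 3.68, 3.56 and 3.19.

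Some members were lower in gastrocnemius than in quadriceps in each of the 3 groups. At 10 months 5 of 52 tested members were lower and none higher (edgeR, Benjamini-Hochberg), where 10.9% of 15433 genes were called and 4.17% were lower. These were the muscle isoforms Cox7a1 and Cox6a2, Sdhb, and the mitochondrial CYTB and COX1. At 18 months 7 members were lower in sedentary mice, the same 5 with Cox6a1 and Atp5e, where 13.1% of genes were called and 6.09% were lower. In exercised mice 29 were lower, 24 nuclear and 5 mitochondrial, where 18.5% of genes were called and 8.85% were lower. In either direction the share of members called was near that of all genes in both sedentary comparisons and above it in exercised mice. Counting only lower calls, the share of members was above that of all genes each time.

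Cox7a1 TPM at 10 months ran from 688.6 over a median of 1096 to 1678 in gastrocnemius and from 885.1 over 1457 to 1658 in quadriceps, and the ranges overlapped (log2 -0.46 ± 0.127 SE, edgeR adjusted p = 0.0116). At 18 months its sedentary libraries no longer overlapped, with 987.6 over 1063 to 1163 TPM in gastrocnemius and 1305 over 1380 to 1553 TPM in quadriceps (log2 -0.51, edgeR adjusted p = 0.00424). In exercised mice the medians were 1261 and 1664 TPM, with overlapping ranges (log2 -0.49, edgeR adjusted p = 0.00146).

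Cox6a2 had medians of 2183 and 2561 TPM at 10 months (log2 -0.31, edgeR adjusted p = 0.0336). The medians were 2210 and 2795 TPM in sedentary and 2316 and 2753 TPM in exercised 18-month mice (log2 -0.44 in both, edgeR adjusted p = 0.00173 and 0.000319). At 10 months its gastrocnemius libraries reached 3113 TPM and the quadriceps libraries 2844 TPM, so they overlapped. Its common partner Cox6a1 differed by -0.42 ± 0.0969 (SE, edgeR adjusted p = 0.00129) in sedentary and by -0.37 (edgeR adjusted p = 0.00109) in exercised 18-month mice, so both forms were lower.

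Sdhb had medians of 741 and 864.5 TPM at 10 months, 751 and 870.5 TPM in sedentary 18-month mice, and 899.8 and 967.6 TPM in exercised mice. Its log2 differences were -0.31, -0.34 and -0.29 (edgeR adjusted p = 0.0256, 0.0134 and 0.0125), with overlapping libraries in each group. It was the one complex II member called at 10 months and in sedentary mice of 18 months.

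CYTB ran from 24160 over 37390 to 39690 TPM in gastrocnemius and from 37420 over 41590 to 50510 TPM in quadriceps at 10 months (log2 -0.37 ± 0.108 SE, edgeR adjusted p = 0.0181). In 18-month mice it was at medians of 35390 and 41160 TPM when sedentary and 39770 and 46910 TPM when exercised (log2 -0.36 and -0.44, edgeR adjusted p = 0.0214 and 0.000779). COX1, the catalytic subunit of complex IV, had medians of 56310 and 61560, 53750 and 59860, and 62240 and 77590 TPM in the 3 pairs of groups. It differed by -0.39, -0.39 and -0.46 (edgeR adjusted p = 0.0486, 0.0481 and 0.00452).

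In exercised mice the other members with the smallest p were Atp5o, a stalk subunit (-0.35, edgeR adjusted p = 0.00629), Cox8a (-0.27, 0.00961) and Atp5g1 (-0.35, 0.0125). Over all 52 tested members, 50 were fitted lower in gastrocnemius at 10 months, 51 in sedentary and 52 in exercised 18-month mice. Their medians were -0.17, -0.20 and -0.24, while the medians of all genes were 0.003, -0.007 and 0.001. The effect of age and the effect of exercise on a member were not shown to differ between the 2 muscles. No gene of 15433 was called for either difference of effects (edgeR, the one tool run, percent called 0), and 1 member for age and 0 for exercise had an unadjusted p under 0.05.

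**Figure D3:**
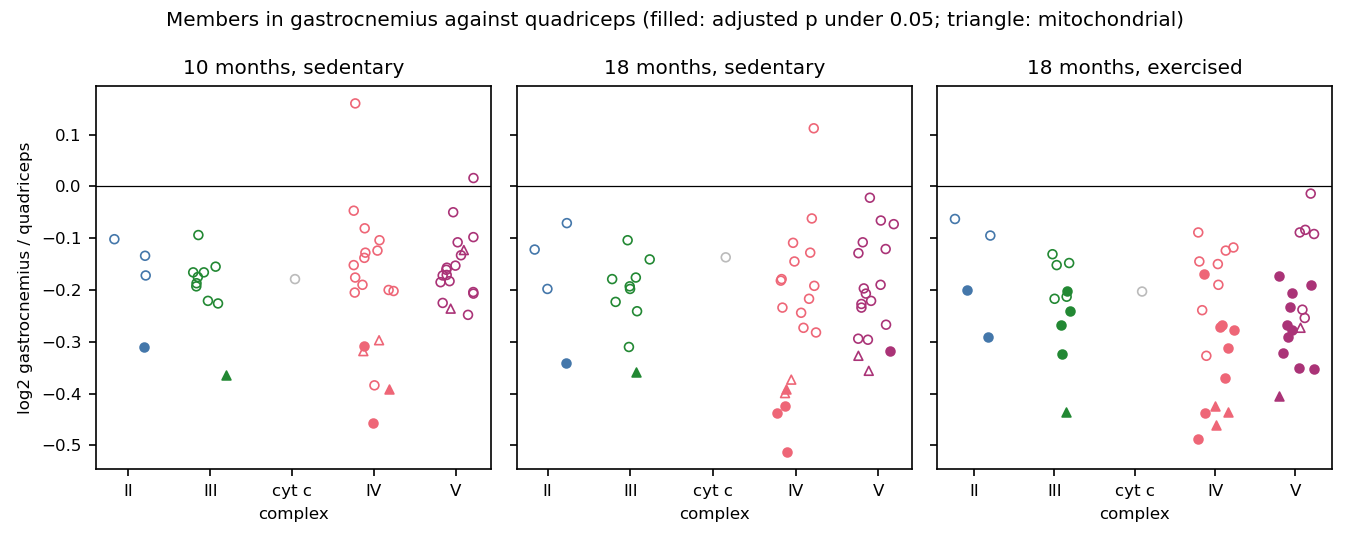
log2 ratio of gastrocnemius to quadriceps (edgeR) for each tested member, by complex and in 3 panels for 10 months sedentary, 18 months sedentary and 18 months exercised; filled symbols have an adjusted p under 0.05 and triangles are mitochondrial. Nearly all points lie below 0, and the filled ones number 5, 7 and 29.

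The number of calls changed with the setting, and the share of all genes called is not given here for these settings. With the library number as a block, 26 members were lower at 10 months, and 21 in sedentary and 44 in exercised 18-month mice. Libraries of the 2 muscles with the same number had correlated deviations from their group means (median 0.379), which the main fit does not use. Without gastrocnemius libraries 3.1 and 2.2 and quadriceps library 3.1, 42 members were lower at 10 months and 24 in sedentary 18-month mice, and with library totals and no scaling factor 8 were lower in exercised mice. Slow fibre markers summed to medians of 1051 TPM in gastrocnemius and 714.6 TPM in quadriceps at 10 months, and the fast fibre sums were 65360 and 59240 TPM. The part of the fibre mix in the differences was not tested.

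Some genes that assemble these complexes also differed between the muscles. Of 37 tested assembly factors (39 listed), 3 were lower in gastrocnemius at 10 months, and 2 lower and 1 higher in sedentary 18-month mice. In exercised mice 4 were lower and 1 higher. Of all 15433 genes 10.9%, 13.1% and 18.5% were called in these comparisons, and 4.17%, 6.09% and 8.85% were lower. In either direction the share of factors called was thus below that of all genes each time. Atpaf2, which helps build the catalytic head of ATP synthase, was lower in each (-0.21, -0.19 and -0.24, edgeR adjusted p = 0.00831, 0.0248 and 0.000635). Uqcc1, an assembly factor of complex III, was lower by 0.18 at 10 months and Ttc19 by 0.135 (edgeR adjusted p = 0.0104 and 0.044). In sedentary 18-month mice Coa6, needed for copper delivery to complex IV, was at -0.23 and Coa5 at 0.19 (edgeR adjusted p = 0.0292 and 0.0304). In exercised mice Uqcc1 was at -0.16 and Lrpprc, which stabilises mitochondrial mRNA, at 0.13 (edgeR adjusted p = 0.0061 and 0.0131). Of 7 subunits and regulators with other names 1, 1 and 2 were lower and none higher.

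Age alone was tied to no called member in either muscle. In sedentary gastrocnemius 0 of 52 members were called between 18 and 10 months (edgeR, 0.153% of 15027 genes called; 0 also with DESeq2), with 1 at an unadjusted p under 0.05. In quadriceps 0 of 52 were called (0.352% of 14790 genes; 0 also with DESeq2), with none at an unadjusted p under 0.05. The member medians were -0.055 and -0.034 on the log2 scale, against -0.020 and -0.015 for all genes. The sign of these medians depends on the setting for the nuclear members. In gastrocnemius the nuclear median was -0.055 in the fit of all libraries, 0.019 without libraries 3.1 and 2.2 (33 of 46 fitted higher) and 0.047 with a length slope (41 of 46). In quadriceps it was -0.033, -0.064 without library 3.1 and 0.065 with a length slope (44 of 46). The smallest p in gastrocnemius was that of Cox6a1 (-0.27 ± 0.0966 SE, edgeR adjusted p = 0.315).

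Exercised mice of 18 months had higher fitted values than sedentary mice of that age for nearly every member in both muscles, but none passed the test. In gastrocnemius 50 of 52 members were fitted higher, with a median of 0.175 against 0.004 for all genes. Of these members 0 were called (0.106% of 15027 genes), 23 had an unadjusted p under 0.05, and DESeq2 called 1, CYTB. In quadriceps 52 of 52 were fitted higher, with a median of 0.199 against -0.003. Again 0 were called (0.757% of 14790 genes), 26 had an unadjusted p under 0.05, and DESeq2 called 1, Atp5b. The medians of the nuclear members were 0.169 in gastrocnemius and 0.193 in quadriceps, and those of the mitochondrial members 0.208 and 0.254.

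The summed CPM of the nuclear members ran from 15290 over a median of 16400 to 18310 in sedentary and from 16570 over 18360 to 22930 in exercised gastrocnemius at 18 months. In quadriceps it ran from 16640 over 17450 to 20830 and from 15710 over 21100 to 26230. The summed CPM of the mitochondrial members had medians of 52940 and 61130 in gastrocnemius and of 63270 and 84780 in quadriceps. Sedentary and exercised libraries overlapped in each of these sums, and exercised libraries were the more widely spread.

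**Figure D4:**
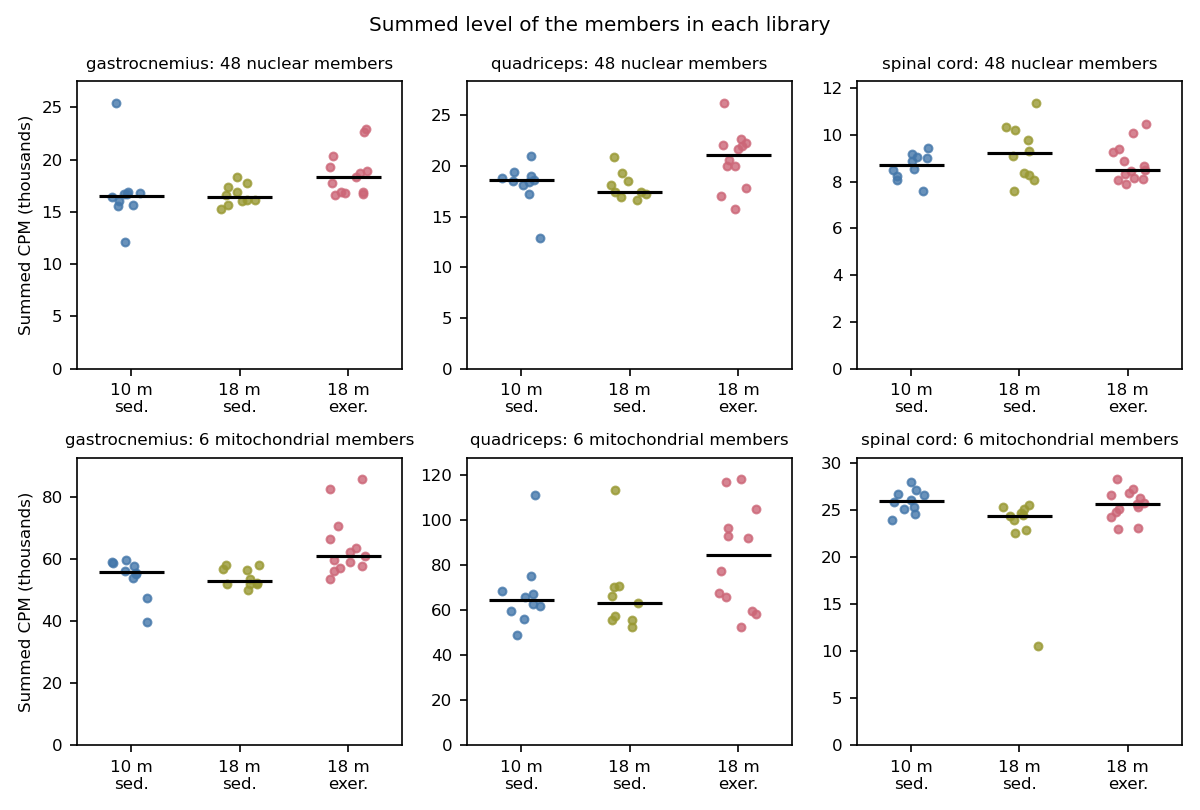
Summed CPM (axis in units of 1000 CPM) of the nuclear (upper row) and mitochondrial (lower row) members in each library, by tissue and group, 1 point per library with a bar at the median. In both muscles the exercised medians lie above the sedentary 18-month medians with overlapping points, and in cord 1 sedentary 18-month library lies at a mitochondrial sum of 10520 CPM.

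Sdhb in gastrocnemius ran from 321.2 over 346.9 to 403.5 CPM in sedentary and from 358.5 over 430 to 560.3 CPM in exercised mice of 18 months. All 13 exercised libraries lay above the sedentary median and 8 above the sedentary maximum (log2 0.30 ± 0.0892 SE, edgeR adjusted p = 0.117). COX1 had 33530 over 36040 to 39600 CPM and 35310 over 41290 to 58760 CPM, with 9 exercised libraries above the sedentary maximum (log2 0.26, edgeR adjusted p = 0.157). CYTB was at 0.23 ± 0.0652 (edgeR adjusted p = 0.114) and the muscle isoform Cox7a1 at 0.35 ± 0.120 (edgeR adjusted p = 0.181).

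Atp5b in quadriceps ran from 2662 over 2797 to 3037 CPM in sedentary and from 2640 over 3273 to 4302 CPM in exercised mice of 18 months. Of 12 exercised libraries 9 lay above the sedentary maximum (log2 0.22 ± 0.0685 SE, edgeR adjusted p = 0.158). Uqcrb, Atp5g3 and Atp5g1 were at 0.21, 0.31 and 0.32 (edgeR adjusted p = 0.157, 0.204 and 0.221). In none of the 9 comparisons within a tissue did a member have groups without overlap.

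The number of exercise calls changed with 10-month libraries, which are outside this comparison but in the same fit. Without gastrocnemius libraries 3.1 and 2.2, 20 members rose with exercise, 18 nuclear and 2 mitochondrial, Sdhb at 0.31 (edgeR adjusted p = 0.00982) and Cox7a1 at 0.35 (edgeR adjusted p = 0.0133) among them. Leaving out 2.2 or 3.1 alone gave 1 rise each. Without quadriceps library 3.1, 4 members rose, Atp5g3, Uqcrb, Atp5b and Cycs. The share of all genes called in these fits is not given here, so the counts are not read as particular to the members. Endothelial markers had medians of 191.4 CPM in sedentary and 234.4 CPM in exercised gastrocnemius and of 197.7 and 231.8 CPM in quadriceps. Smooth muscle and pericyte markers went from 342.1 to 426.3 and from 352.1 to 417 CPM. Most of this sum was Rgs5, at 242.7 and 311.9 CPM in gastrocnemius and 228 and 285.3 CPM in quadriceps. Pdgfrb and Kcnj8 also had higher medians in both exercised muscles. Myh11 and Acta2 had lower medians in exercised gastrocnemius (27.87 to 26.97 and 33.22 to 30.24 CPM). In exercised quadriceps theirs were higher (31.95 to 35.81 and 44.17 to 48.21 CPM). The fast myosin gene Myh1 had medians of 3245 and 6487 CPM in gastrocnemius and of 5141 and 9116 CPM in quadriceps, and Myh4 of 66230 and 52080 and of 52490 and 45110 CPM. The part of these cell and fibre types was not tested, and in bulk tissue fewer cells of a type and less RNA per cell cannot be told apart.

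Exercised mice of 18 months against sedentary mice of 10 months gave the only calls of members within muscle. This comparison shares its libraries with both others, so it is no independent test of either. In gastrocnemius 4 members rose (6.73% of genes called, 3.43% up): Uqcrc2, a core protein of complex III, Sdha and Sdhb of complex II, and COX1 of complex IV. In quadriceps 2 rose (11.1% of genes called, 5.76% up), Atp5b and Uqcrc2. No member fell in either muscle. In either direction the share of members called was near the background in gastrocnemius and below it in quadriceps, while 45 and 50 of 52 members were fitted higher, with medians of 0.142 and 0.18 against -0.008 and -0.013 for all genes.

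Uqcrc2 (Entrez gene 67003; GRCm38 chromosome 7, 120635176 to 120659524, plus strand) ran from 291.8 over 375.1 to 406.8 CPM at 10 months in gastrocnemius. It had 350.6 over 397.3 to 412.1 CPM in sedentary and 384.8 over 439.4 to 537.1 CPM in exercised mice of 18 months. All 13 exercised libraries were above the 10-month median and 9 above the 10-month maximum (log2 0.24 ± 0.0578 SE, edgeR adjusted p = 0.0117). In quadriceps the 10-month range was 296.5 over 407.4 to 443.5 CPM and the exercised range 374.1 over 455.1 to 588.8 CPM, with 8 of 12 exercised libraries above the maximum (log2 0.20 ± 0.0652 SE, edgeR adjusted p = 0.0465). Its exons share 504 of 2552 bases with Pdzd9 on the opposite strand, and whether counting used strand is not given in the sources used here.

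Sdha (Entrez gene 66945; chromosome 13, 74322254 to 74350280, minus strand) had 802.6 over 880.5 to 1002 CPM at 10 months and 858.4 over 993.7 to 1165 CPM in exercised gastrocnemius. The groups overlapped, with 12 of 13 exercised libraries above the 10-month median and 4 above the maximum (log2 0.17 ± 0.0493 SE, edgeR adjusted p = 0.0342). Sdhb (Entrez gene 67680; chromosome 4, 140961203 to 140979193, plus strand) had 244.1 over 345.6 to 551.9 CPM and 358.5 over 430 to 560.3 CPM. Only 1 exercised library was above the 10-month maximum, which is library 2.2, and 13 of 13 were above the median (log2 0.29 ± 0.0892 SE, edgeR adjusted p = 0.0434).

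COX1 (Entrez gene 17708; mitochondrial DNA, 5328 to 6872) had 24470 over 37460 to 40380 CPM at 10 months in gastrocnemius and 35310 over 41290 to 58760 CPM in exercised mice. Of 13 exercised libraries 8 exceeded the 10-month maximum (log2 0.27 ± 0.0830 SE, edgeR adjusted p = 0.0453). Atp5b (Entrez gene 11947; chromosome 10, 128083273 to 128090391, plus strand) had 2204 over 2907 to 3008 CPM at 10 months in quadriceps and 2640 over 3273 to 4302 CPM in exercised mice. Of 12 exercised libraries 9 exceeded the maximum and 3 lay below the median (log2 0.22 ± 0.0664 SE, edgeR adjusted p = 0.0314).

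The gastrocnemius count was between 1 and 32 when single libraries were left out, with 32 without 10-month library 2.2, and the quadriceps count between 0 and 10, with 10 without exercised library 9.1. These counts, for which the share of all genes called is not given here, are over libraries of the 2 groups compared. The next are over every library of the tissue. Uqcrc2 was called in 33 of 33 fits in gastrocnemius and in 10 of 31 in quadriceps, Sdha in 29, Sdhb in 18 and COX1 in 11 of 33, and Atp5b in 29 of 31. With library totals and no scaling factor, Atp5b and Uqcrc2 both lost their call in quadriceps, and Cox7a2, Sdhb and Atp5c1 were called in their place (edgeR adjusted p = 0.0309, 0.0362 and 0.0367).

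Among assembly factors, Taco1, a translational activator of COX1, rose in gastrocnemius (0.21, edgeR adjusted p = 0.0436), and Sdhaf3, which helps assemble complex II, fell in quadriceps (-0.26, edgeR adjusted p = 0.00585). These were the only calls among 37 tested factors in this comparison, where 6.73% of genes were called in gastrocnemius and 11.1% in quadriceps. There were 0 for age and 0 for exercise in either muscle. Of the 7 mitochondrial mRNAs of complex I, ND6 rose in gastrocnemius (0.21, edgeR adjusted p = 0.035) and none was called in quadriceps.

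**Figure D5:**
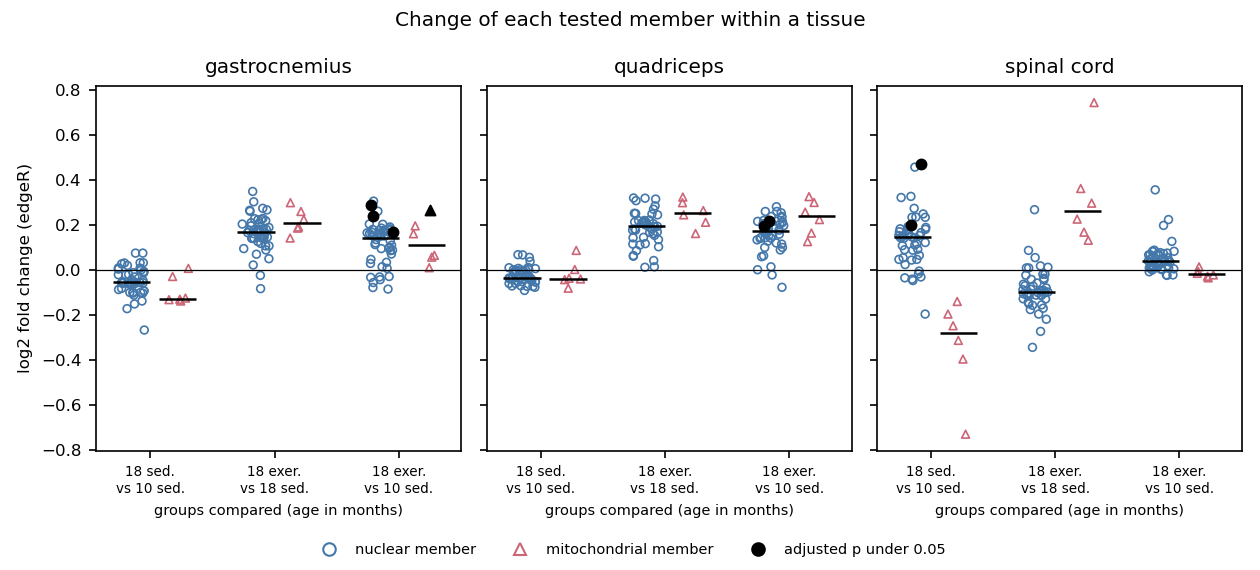
log2 fold change (edgeR) of each tested member for 3 comparisons within gastrocnemius, quadriceps and cord, with nuclear members as circles, mitochondrial members as triangles and bars at their medians; filled symbols have an adjusted p under 0.05. In muscle, points lie near 0 for age and mostly above 0 in both comparisons of exercised mice, and in cord the mitochondrial and nuclear members lie on opposite sides of 0 for age.

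In sedentary spinal cord 2 of 53 tested members rose from 10 to 18 months, the nuclear Cox4i2 and Atp5g2. Of 18956 genes 5.35% were called, 2.82% up. In either direction the share of members called was below that of all genes, and the share that rose was near that of all genes. The 2 genomes were fitted in opposite directions. Of 47 tested nuclear members 40 were fitted higher, with a median of 0.148, and of 6 mitochondrial members none was, with a median of -0.28, against 0.007 for all genes. None of the mitochondrial members passed the edgeR test, while DESeq2 called ATP6 and ATP8 lower beside the rises of Cox4i2 and Atp5g2.

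Cox4i2 (Entrez gene 84682; chromosome 2, 152754173 to 152765037, plus strand) ran from 1.504 over 1.717 to 2.102 CPM at 10 months and from 1.624 over 2.326 to 3.719 CPM at 18 months. The groups overlapped, with 8 of 10 older libraries above the younger median and 6 above the maximum (log2 0.47 ± 0.134 SE, edgeR adjusted p = 0.0348). It was rare, with 47 to 76 counts per library at 10 months and 77 to 121 at 18 months. In exercised cord it had 1.464 over 1.802 to 2.887 CPM.

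Atp5g2 (Entrez gene 67942; chromosome 15, 102662864 to 102672352, minus strand) ran from 23.66 over 27.14 to 32.36 CPM at 10 months and from 26.26 over 30.53 to 38.68 CPM at 18 months. Of 10 older libraries 9 lay above the younger median and 4 above the maximum (log2 0.20 ± 0.0606 SE, edgeR adjusted p = 0.0465). In exercised cord it had 26.51 over 28.22 to 33.64 CPM. The sequence it shares with another locus, described above, makes this gene uncertain.

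COX1 in cord ran from 15990 over 17590 to 18540 CPM at 10 months and from 7310 over 16200 to 17020 CPM at 18 months, with 0 of 10 older libraries above the younger median. ATP6 had 11.56 over 13.99 to 17.55 CPM and 4.375 over 11.81 to 14.42 CPM (log2 -0.40, edgeR adjusted p = 0.0548). ATP8, a small subunit counted only 2 to 38 times in a library of these groups, was at -0.73 (edgeR adjusted p = 0.057). ND4L of complex I, also encoded in mitochondrial DNA, fell by 0.66 ± 0.168 (SE, edgeR adjusted p = 0.0209), the one call among 7 complex I mRNAs of mitochondrial DNA.

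Libraries 5.2 and 6.1 and transcript length touch the nuclear shift. Library 5.2 had 1.585% mitochondrial counts, and library 6.1 had red cell markers at 11090 CPM and the highest nuclear sum, 11380 CPM. Without both, the nuclear median was 0.063 with 39 of 47 fitted higher and 0 called, the mitochondrial median was -0.289, and ATP6 fell (-0.34, edgeR adjusted p = 0.0466). With each library's slope of expression on gene length as a covariate, 9 of 47 nuclear members were fitted higher, the nuclear median was -0.039, the mitochondrial median -0.382 and 0 members were called. That slope had medians of 0.0381 at 10 months, -0.0311 in sedentary and 0.026 in exercised 18-month cord. Leaving out single libraries of the groups compared gave 0 to 8 called members, with Cox4i2 called in 23 and Atp5g2 in 14 of 33 fits over every cord library.

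Microglia and macrophage markers had medians of 201.1 CPM at 10 and 275.9 CPM at 18 months in sedentary cord, and neuronal markers of 5398 and 5092 CPM. Astrocyte markers had medians of 3545 and 3801 CPM and oligodendrocyte markers of 19220 and 19880 CPM. Each of these pairs of groups overlapped, for the microglia and macrophage markers only through 10-month library 3.1 at 344.2 CPM, since the other 10-month libraries reached at most 211.8 CPM and the lowest at 18 months was at 239 CPM. Their part in the values of the members was not tested.

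With exercise at 18 months no member was called in cord. This comparison shares the sedentary 18-month libraries with the age comparison, so the signs of the 2 are not independent. Nuclear members were fitted higher in 7 of 47 cases, with a median of -0.098, and mitochondrial members in 6 of 6, with a median of 0.262. With a length slope the nuclear sign turned, with 34 of 47 fitted higher and a median of 0.035. No gene of 18956 was called (edgeR, percent called 0), 13 members had an unadjusted p under 0.05, and DESeq2 called 0 members. Without libraries 5.2 and 6.1 of the sedentary group, the nuclear median was -0.007 and the mitochondrial median 0.277. Exercised 18-month against sedentary 10-month cord gave 0 called members (1.5% of genes called), none with an unadjusted p under 0.05 and 0 in every fit without 1 of its libraries, and a median of 0.035 against 0.002 for all genes.

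The response to exercise was lower in cord than in the mean of both muscles for 1 member. Uqcrq, a small subunit of complex III (Entrez gene 22272; chromosome 11, 53427922 to 53430831, minus strand), had medians of 75.55 CPM in sedentary and 64.74 CPM in exercised cord. It had 162.7 and 180.5 CPM in gastrocnemius and 196.6 and 245.9 CPM in quadriceps, with overlapping ranges in each tissue. The difference of effects was -0.48 ± 0.127 (SE, edgeR adjusted p = 0.0431), where 0.887% of 19735 genes were called and 0.603% were lower. Uqcrq lay above the sedentary median in 13 of 13 exercised gastrocnemius and 10 of 12 exercised quadriceps libraries, and below it in 11 of 13 cord libraries. Without the 5 libraries that stood apart, no member was called.

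Of 53 tested members 47 were fitted lower in cord than in muscle for the exercise effect, with a median of -0.258 against -0.016 for all genes, and 33 had an unadjusted p under 0.05. The members next to Uqcrq were Cox5b (-0.45, edgeR adjusted p = 0.0562) and Atp5g1 (-0.43, edgeR adjusted p = 0.0614), neither of which passed. The transcript searched for Cox5b shares 45.1% of its bases with another locus. For the age effect 0 members were called (2.61% of genes), with a median of 0.138, and 14 had an unadjusted p under 0.05. Of the assembly factors Sdhaf1, which matures the iron-sulphur subunit of complex II, had a higher age effect in cord (0.41 ± 0.103 SE, edgeR adjusted p = 0.0187), and no other of 37 was called in either difference.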

How the data were processed

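Polyadenylated RNA of 97 libraries was analysed, and 2 labelled quadriceps samples (10.4, sedentary 18 months, and 10.2, exercised) were not analysed here. Libraries were made with the TruSeq RNA v2 kit, per the labels' protocols. The submitters' processing notes name STAR 2.5.2b and the build GRCm38.p5. The counting step (program, strand) is not given in the sources used here. Whole-number counts per gene with gene lengths (other values) were deposited, as were TPM, which matched those counts and lengths. No library was a copy of another of its group (chi-square per gene at least 3.24).

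Counts were fitted with edgeR 4.0.16 (R 4.3.3): TMM factors, filterByExpr (minimum count 10, total 15), 3 groups per tissue, or all groups of the tissues compared, and quasi-likelihood tests with Benjamini-Hochberg adjustment over all genes at 0.05. CPM are scaled by TMM within a tissue, so tissues were compared by TPM. SE came from the F statistic. On simulated gastrocnemius ageing data (15027 genes), 83% of genes changed by 0.5 and 97% of those changed by 1 (log2) were called, with 0.0337% of unchanged genes. Isoform shares were compared by 24 two-sided permutation tests, exact where a group was under 10 and otherwise with 100000 resamples. Shared sequence (at least 100 bases at 98%) was found with blastn 2.17.0, and motifs with Biopython 1.88 and Python 3.11.15. Positions are from GENCODE M21.

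Named were called members within tissues and in differences of effects (8 by p where more), the 5 largest differences between tissues, and fixed isoforms, catalytic subunits and mitochondrial members, with up to 3 assembly factors by p. Others named were added after their values were seen. Members and lists were chosen with earlier results of these data known. Alternatives were DESeq2 1.42.0, other scaling and filters, fits of 2 groups, a length slope, a replicate block, and libraries left out.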

Additional observations from a re-analysis of the deposited data

Results flagged for a closer look

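In 9 of 30 tests, 1 library lay far from the rest of its group (Dixon's ratio). Each test took 1 measure, a summed level or a called member, in 1 group of 4 to 10 libraries. Chance gives about 1 in 20 for a single test. The tests share libraries, and members are part of the sums, so they are not independent. In gastrocnemius at 10 months, library 2.2 had a summed nuclear level of 25450 CPM, the nearest library being at 16950 CPM, and an Sdhb level of 551.9 CPM, the nearest at 374.3 CPM. Library 3.1 of that group had an Uqcrc2 level of 291.8 CPM, the nearest at 360 CPM. In quadriceps at 10 months, library 3.1 was low for the summed nuclear level (12870 CPM, nearest 17210), Atp5b (2204 CPM, nearest 2756) and Uqcrc2 (296.5 CPM, nearest 393). Library 3.2 of the same group was high for the summed mitochondrial level, at 111400 CPM with the nearest at 75100 CPM. In sedentary mice of 18 months, library 5.2 had the highest mitochondrial sum in quadriceps (113400 CPM, nearest 70710) and the lowest in cord (10520 CPM, nearest 22510).

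The exercise effect on Uqcrq differed between cord and the mean of both muscles by -0.478 on the log2 scale in a test of the difference itself (edgeR).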

How the results depend on the processing

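Of the alternatives run for the calls and isoform shares, 275 left a count of calls within 1.5 times or a share on its side of the threshold. Another 32 raised the count or passed the threshold, and 47 lowered the count or lost it. A count of calls carries no direction, and the sign of some nuclear medians turned with a length slope, as given above. The cause was not tested, and the share of all genes called under each alternative is not given here. Exercise in gastrocnemius (0 called) gave 20 without the libraries standing apart, 3 with a length slope, 2 with 2 groups fitted, 1 with DESeq2 and 1 with library totals, which was tried after these results were known. Exercise in quadriceps (0) gave 4 and 1 (without the libraries standing apart; DESeq2). Exercised 18 against sedentary 10 months gave 26, 24, 12, 1 and 1 in gastrocnemius (length slope, libraries standing apart left out, library totals, no filter, 2 groups; main 4) and 18, 0, 0, 1 and 4 in quadriceps (length slope, no filter, 2 groups, libraries standing apart left out, DESeq2; main 2); library totals gave 3 there, none of them a main call. Ageing in cord (2) gave 0 with a length slope, no filter or 2 groups, 1 without the libraries standing apart and 4 with DESeq2 (Cox4i2 and Atp5g2 up, ATP6 and ATP8 down). Leaving out single libraries of the groups compared gave 0 to 0 called members for ageing in both muscles, for exercise in gastrocnemius and cord and for exercised against 10-month cord, and 0 to 1 for exercise in quadriceps (1 without exercised library 9.1). Leaving out single 10-month libraries, which are in the fit but not in the exercise comparison, gave 0 to 1 in gastrocnemius (1 without 2.2 or 3.1), 0 to 4 in quadriceps (4 without 3.1) and 0 to 0 in cord. It gave 1 to 32 and 0 to 10 for exercised against 10-month gastrocnemius and quadriceps, and 0 to 8 for ageing in cord. In cord, 8 were called without library SC_10.4, 7 without 7.4 and 4 without 2.1, and 0 without 1.1, 1.2, 1.4, 2.2, 2.3, 3.2, 5.2, 6.1, 6.4 or 9.2. In quadriceps 0 were called without exercised libraries 7.1 or 7.3.

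The same number in gastrocnemius and quadriceps had deviations correlated by -0.147 to 0.947 (median 0.379, 28 of 31 pairs over 0.1). There 21 of 31 libraries correlated best with their own number, so the number was shared by similar libraries of the 2 muscles. In gastrocnemius and cord 16 of 33 pairs were over 0.1 and 4 correlated best with their own number. In quadriceps and cord these were 14 of 31 and 3. The labels do not say what a number marks, and the main fits used no pairing. With a replicate block for the number, gastrocnemius against quadriceps gave 26, 21 and 44 lower members (10 months, 18 months sedentary, 18 months exercised; 5, 7 and 29 without it), and 42 and 24 in the first pair of these without the libraries standing apart, and 8 in the third with library totals. The difference in ageing between cord and muscle gave 1 with the block and 2 with library totals (0), that in exercise 12, 3 and, without the libraries standing apart, 0 (1). Comparisons within a tissue share no numbers, so no block could be fitted there. The Cox6a2 share with age in gastrocnemius moved to 0.46 points (permutation, adjusted p = 0.0296). Low counts limit Cox7b2, Cox8c, Cox6b2, Cox4i2 and ATP8.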
